A study of Mus musculus with 8 samples.

Results

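The genes described here are 44 cell cycle genes in 2 classes, 18 that act in DNA replication and 26 that act in mitosis, read in embryonic mouse skin with and without the glucocorticoid receptor (GR). Each gene was read at its brightest probe set (by the mean of the 8 arrays), counting only probe sets that the platform annotation gives to a single gene. By that rule 43 of the 44 were measured, out of 18193 genes in all. All 18 replication genes and 25 of the 26 mitosis genes had such a probe set, and Ccnb1, a cyclin of mitotic entry, had none and was left out.

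RNA came from dorsal skin of B6D2/F1 embryos at embryonic day 18.5, delivered by cesarean, and was hybridised to single-colour Affymetrix Mouse Genome 430 2.0 arrays. There were 4 GR-null arrays (genotype GR-/-, label numbers 5, 17, 25 and 26) and 4 wild-type arrays (GR+/+, label numbers 4, 6, 28 and 29), from embryos that the labels call littermates. The labels name no drug or other agent for either genotype, and the design of the disrupted Nr3c1 allele is not stated by the labels. Whether every array holds a separate embryo is not stated, so p-values measure the spread between these samples, which may be technical. Values are log2 levels made with RMA (robust multi-array average), and every log2 fold change is the GR-null mean minus the wild-type mean. Wherever values of every array are listed, they follow the order GR-null 5, 17, 25 and 26, then wild-type 4, 6, 28 and 29.

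Nr3c1, the gene of the receptor, was read first as a check of the genotype labels. Its probe set next to the brightest read 7.66, 8.01, 8.19 and 7.97 in GR-null arrays and 9.93, 9.68, 9.74 and 9.92 in wild-type arrays. Every GR-null array lay below every wild-type array there and at 2 other probe sets. The log2 fold changes at the 3 brightest probe sets were -0.84, -1.86 and -2.70 (limma, adjusted p over probe sets = 0.0133, 0.000831 and 0.00158), and its 3 dimmer probe sets were not called. The labels do not say which probe sets fall within the disrupted part, and only those that do can check the genotype.

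A dividing cell first licenses its replication origins by loading the Mcm helicase, then copies its DNA in S phase and condenses, aligns and separates its chromosomes in mitosis. Transcripts of the replication genes accumulate before and during S phase, largely under E2F factors, and those of the mitosis genes accumulate later under the DREAM and B-Myb complexes and Foxm1. In late fetal skin most dividing cells of the epidermis lie in the basal layer and the growing hair follicles, and dividing cells are also found in the dermis. In whole skin, fewer cells of a type and less RNA per cell cannot be told apart.

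The promoters of 36 of the 44 listed genes were found in a RefSeq table (GRCm38.p6) that covers 250 bases before to 50 bases after the start of 27025 genes. The letters searched, on both strands, were TTTGAA and also TTCGAA (the cell cycle genes homology region, CHR, bound by DREAM), and CCAAT (bound by NF-Y). E2F-like letters were counted in any of 4 forms, which are TTGGCGC in the first, TTCCCGC in another, TTCGCGC in the next and TTGCCGC in the last. CHR letters were held by 16 of 21 mitosis promoters (76.2%), 2 of 15 replication promoters (13.3%) and 21.7% of all promoters. E2F-like letters were held by 3 of 21 mitosis promoters (14.3%), 10 of 15 replication promoters (66.7%) and 10.9% of all promoters. CCAAT was held by 18 of 21 mitosis promoters (85.7%), 10 of 15 replication promoters (66.7%) and 41.1% of all promoters. Among genes outside the members, CHR letters were held by 70.1% of 67 other mitosis promoters and 22.7% of 44 other replication promoters. E2F-like letters were held by 28.4% of the other mitosis promoters and 61.4% of the other replication promoters, and CCAAT by 67.2% and 59.1%. The differences between the classes were thus smaller outside the members for all 3 kinds of letters. A match describes the letters and is not a measured binding site.

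The promoters below belong to the members whose GR-null and wild-type values did not overlap and that the table holds. They are printed 5′ to 3′ in GRCm38.p6, with the CHR, CCAAT and E2F-like letters of either strand in capitals. Ccnb2 lies at chr9:70421505-70421804 on the minus strand, Cdk1 at chr10:69352863-69353162 on the minus strand, Top2a at chr11:99024140-99024439 on the minus strand and Kif11 at chr19:37376132-37376431 on the plus strand. Of Uhrf1 the first of 2 listed starts is shown, at chr17:56303087-56303386 on the plus strand, in which a CCAAT on each strand overlaps the other.
Cdk1: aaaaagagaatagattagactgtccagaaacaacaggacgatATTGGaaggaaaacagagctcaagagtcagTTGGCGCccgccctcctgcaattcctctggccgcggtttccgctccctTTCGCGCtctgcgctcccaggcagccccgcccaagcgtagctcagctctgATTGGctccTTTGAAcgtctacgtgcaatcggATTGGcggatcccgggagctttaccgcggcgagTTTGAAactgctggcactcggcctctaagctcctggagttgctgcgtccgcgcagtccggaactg
Ccnb2: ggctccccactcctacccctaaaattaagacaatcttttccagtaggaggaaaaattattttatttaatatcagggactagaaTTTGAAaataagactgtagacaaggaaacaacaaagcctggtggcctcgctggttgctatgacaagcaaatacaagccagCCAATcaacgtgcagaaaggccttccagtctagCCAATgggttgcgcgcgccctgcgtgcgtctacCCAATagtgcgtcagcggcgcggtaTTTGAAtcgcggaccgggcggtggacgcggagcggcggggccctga
Kif11: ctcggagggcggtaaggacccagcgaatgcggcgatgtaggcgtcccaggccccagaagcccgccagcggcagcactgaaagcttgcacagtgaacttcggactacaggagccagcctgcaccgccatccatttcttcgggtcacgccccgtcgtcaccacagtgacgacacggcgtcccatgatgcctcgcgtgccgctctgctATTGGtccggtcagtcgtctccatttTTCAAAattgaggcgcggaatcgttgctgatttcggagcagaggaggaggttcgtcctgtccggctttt
Top2a: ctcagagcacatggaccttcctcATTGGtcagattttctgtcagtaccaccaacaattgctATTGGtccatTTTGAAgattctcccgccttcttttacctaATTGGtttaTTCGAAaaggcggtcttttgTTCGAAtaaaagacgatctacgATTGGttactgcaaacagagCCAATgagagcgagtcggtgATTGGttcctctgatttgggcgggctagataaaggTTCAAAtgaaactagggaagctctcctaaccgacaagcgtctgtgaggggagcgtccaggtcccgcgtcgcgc
Uhrf1: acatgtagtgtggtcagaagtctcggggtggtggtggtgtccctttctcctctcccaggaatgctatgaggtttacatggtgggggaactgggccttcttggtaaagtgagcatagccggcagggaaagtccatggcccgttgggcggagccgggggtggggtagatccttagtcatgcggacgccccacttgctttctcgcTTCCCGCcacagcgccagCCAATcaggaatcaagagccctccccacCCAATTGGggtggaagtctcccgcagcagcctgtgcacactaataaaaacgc
All 4 mitosis promoters held CHR letters, 2 times in Ccnb2 and Cdk1, 4 times in Top2a and 1 time in Kif11, each together with CCAAT. Uhrf1, the replication gene among them, held E2F-like letters 1 time, CCAAT 3 times and no CHR letters. Cdk1 held both CHR letters and 2 runs of E2F-like letters.

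As a class the replication genes lay close to 0, and most mitosis genes were slightly higher in GR-null skin. The median log2 fold change was 0.13 over the 25 mitosis genes (range -0.31 to 0.83) and -0.07 over the 18 replication genes (range -0.43 to 0.42), against 0.00 over all genes. A log2 fold change above 0 was found in 17 mitosis genes (68%) and 8 replication genes (44.4%), against 48.7% of all genes. With limma's moderated test and Benjamini-Hochberg adjustment over all genes (threshold 0.05), 1 mitosis gene was called higher and none lower. No replication gene was called, against 2.96% of all genes (539 of 18193, 1.4% higher and 1.56% lower). The single call is 2.33% of the 43 members, near that background. A gene without a call may still differ, since the fit recovered 39.2% of shifts of 0.5 log2 in simulated data. At an unadjusted p under 0.05, 8 mitosis genes (32%) were higher and none lower, and 2 replication genes (11.1%) were higher and 3 (16.7%) lower, against 10.5% higher and 11.1% lower over all genes. These counts rested in part on single arrays, and the shares over all genes changed as well when an array was left out. Without GR-null 17, 4 mitosis genes (16%) were higher and 3 (12%) lower, against 11.6% higher and 14.3% lower over all genes. In that fit 1 replication gene (5.56%) was higher and 5 (27.8%) lower. Without GR-null 26, 4 mitosis genes (16%) were higher and none lower (8.15% and 9.07% of all genes). Without wild-type 28, 4 (16%) were higher and 1 (4%) lower (8.56% and 9.5%). Leaving out any other array left 5 to 8 higher. With a covariate for the 3' minus 5' control difference, described further on, 1 mitosis gene (4%) was higher and none lower (4.97% and 3.26%). With a covariate for muscle markers, 7 mitosis genes (28%) were higher and none lower (5.49% and 3.63%), and no replication gene was either. Without probe sets ending in _x_at or _s_at, 9 of 24 mitosis genes (37.5%) were higher and none lower (11.4% and 10.1%). In that setting 3 replication genes (16.7%) were higher and 3 (16.7%) lower. With array weights, 6 mitosis genes (24%) were higher and 2 (8%) lower, and 2 replication genes (11.1%) were higher and 6 (33.3%) lower. The shares over all genes were then 12.8% higher and 14.9% lower. Without wild-type 6 the replication genes had 5 higher (27.8%) and 1 lower (5.56%), and the mitosis genes again 8 and 0. Over all genes the shares were then 10.4% higher and 10.6% lower. GR-null values lay entirely above wild-type values in 5 mitosis genes (20%) and entirely below in none, and in 1 replication gene they lay entirely below. Over all genes the shares were 6.69% above and 6.3% below. These counts describe the lists, whose members share arrays and are not independent.

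**Figure D1:**
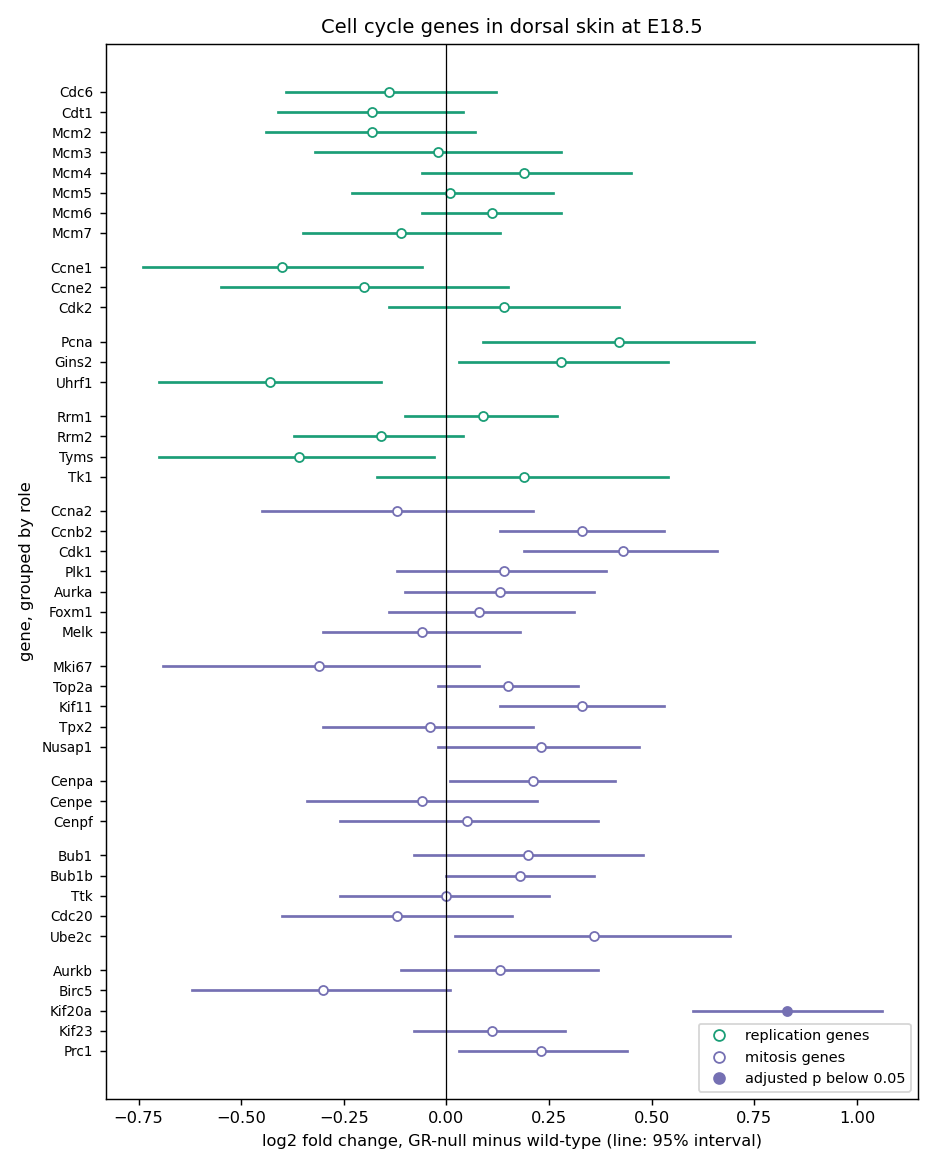
Log2 fold change (GR-null minus wild-type, horizontal axis) of the 43 measured genes grouped by role, with 95% intervals from limma as lines. Kif20a is the filled point at 0.83, and the other open points spread around 0, with replication genes (green) between -0.43 and 0.42 and mitosis genes (purple) between -0.31 and 0.43.

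Among the replication genes, those of origin licensing had a median log2 fold change of -0.07, with none of 8 past the threshold. Cdc6 and Cdt1, which load the helicase onto origins, had log2 fold changes of -0.14 ± 0.11 and -0.18 ± 0.10 (SE, n = 4 per group). At their brightest probe sets the helicase subunits Mcm2 to Mcm7 lay between -0.18 ± 0.11 (Mcm2) and 0.19 ± 0.11 (Mcm4). Each of these 6 genes also had both signs among its own probe sets, as in Mcm6 (-0.55 to 0.11) and Mcm7 (-0.37 to 0.45). At the Mcm7 probe set with 0.45 every GR-null array lay above every wild-type array (limma, adjusted p over probe sets = 0.0673). The sign of a subunit therefore depended on the probe set read.

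The kinase Cdk2 and its partners cyclin E1 (Ccne1) and cyclin E2 (Ccne2), which drive entry into S phase, had no call. Ccne1 read 8.43, 8.50, 8.01 and 8.73 in GR-null arrays and 8.66, 8.95, 8.97 and 8.70 in wild-type arrays, a log2 fold change of -0.40 ± 0.15 (limma, adjusted p = 0.167). GR-null 26 lay inside the wild-type range and the other GR-null arrays lay below it. At the other Ccne1 probe set every GR-null array lay below every wild-type array (-0.53 ± 0.14, limma, adjusted p over probe sets = 0.0615). Cdk2 had a log2 fold change of 0.14 ± 0.12 and Ccne2 one of -0.20 ± 0.16.

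The genes of the replication fork and of chromatin copying lay on both sides of 0, with no call. Pcna, the sliding clamp that holds DNA polymerase on its template, read 12.61, 12.68, 12.66 and 12.82 in GR-null arrays and 11.98, 12.71, 12.16 and 12.24 in wild-type arrays. All GR-null arrays lay above 3 wild-type arrays, and wild-type 6 lay among them. The log2 fold change was 0.42 ± 0.15 (limma, adjusted p = 0.142). It was 0.56 with an adjusted p of 0.0374 without wild-type 6, the only array whose omission gave a call. With a covariate for the state of the RNA, a 3' minus 5' control difference described further on, Pcna had -0.02 ± 0.27. Gins2, a subunit of the helicase activator GINS, differed by 0.28 ± 0.11 log2 (limma, adjusted p = 0.194). Uhrf1, which reads hemimethylated DNA and recruits the maintenance methyltransferase Dnmt1, read 9.83, 10.17, 9.60 and 9.79 in GR-null arrays and 10.27, 10.40, 10.25 and 10.18 in wild-type arrays. It was the only replication gene whose groups did not overlap at the brightest probe set, with GR-null 17 and wild-type 29 almost touching. Its log2 fold change was -0.43 ± 0.12 (1.35-fold lower, limma, adjusted p = 0.0849). It was -0.54 with an adjusted p of 0.0137 without GR-null 17, the only array whose omission gave a call. The other Uhrf1 probe set had the opposite sign, 0.22 ± 0.23, with groups that overlapped.

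The genes of nucleotide supply had a median log2 fold change of -0.04 and no call. Tyms, which makes thymidylate, had -0.36 ± 0.15 (limma, adjusted p = 0.199), and Tk1, which salvages thymidine, had 0.19 ± 0.16 (adjusted p = 0.558). The ribonucleotide reductase subunits Rrm1 and Rrm2 had 0.09 ± 0.08 and -0.16 ± 0.09.

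Among the mitosis genes, those that start mitosis had a median log2 fold change of 0.13, and Cdk1 and cyclin B2, which form a mitotic kinase, lay highest. Cdk1 read 10.39, 10.54, 10.37 and 10.66 in GR-null arrays and 10.01, 10.22, 9.86 and 10.17 in wild-type arrays. Ccnb2 read 10.56, 10.78, 10.54 and 10.69 in GR-null arrays and 10.44, 10.26, 10.19 and 10.37 in wild-type arrays. For both genes every GR-null array lay above every wild-type array. The log2 fold changes were 0.43 ± 0.11 for Cdk1 (limma, adjusted p = 0.0641) and 0.33 ± 0.09 for Ccnb2 (adjusted p = 0.0778). Neither passed the threshold. Of the other members of this role, the cyclin Ccna2 and the kinase Melk had -0.12 ± 0.14 and -0.06 ± 0.10. The kinases Plk1 and Aurka and the transcription factor Foxm1 had 0.14 ± 0.11, 0.13 ± 0.10 and 0.08 ± 0.10. The other Ccna2 probe set had the opposite sign, 0.36 ± 0.13, with groups that overlapped, and that of Aurka had -0.02 ± 0.10. Other Foxm1 probe sets had 0.26 ± 0.09 and 0.17 ± 0.08, with every GR-null array above every wild-type array, and 0.04 ± 0.06. None of these was called.

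Genes of chromosome and spindle structure had a median of 0.15. Kif11, the motor that pushes spindle poles apart, read 9.29, 9.49, 9.31 and 9.37 in GR-null arrays and 9.03, 9.22, 8.98 and 8.92 in wild-type arrays, a log2 fold change of 0.33 ± 0.09 (limma, adjusted p = 0.0767). Top2a, the topoisomerase that untangles sister chromatids, read 11.86, 12.05, 11.86 and 11.96 in GR-null arrays and 11.84, 11.78, 11.76 and 11.74 in wild-type arrays (0.15 ± 0.07, adjusted p = 0.281). Both had groups that did not overlap, and for Top2a the gap was small. The other 2 probe sets of Top2a had the opposite sign, -0.31 ± 0.16 and -0.14 ± 0.10, with groups that overlapped. Mki67, the chromosome surface protein known as the proliferation antigen Ki-67, read 11.98, 12.45, 11.72 and 11.55 in GR-null arrays and 12.28, 12.29, 12.16 and 12.18 in wild-type arrays. GR-null 17 was the highest of all 8 and the other GR-null arrays lay below every wild-type array. The log2 fold change was -0.31 ± 0.17 (limma, adjusted p = 0.349). It was -0.48 with an adjusted p of 0.0333 without GR-null 17, the only array whose omission gave a call. With the 3' minus 5' covariate it was 0.05 ± 0.35. The spindle assembly factor Tpx2 had -0.04 ± 0.11, and Nusap1, which bundles spindle microtubules, 0.23 ± 0.11.

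The kinetochore genes Cenpa, Cenpe and Cenpf, which tie chromosomes to the spindle, had log2 fold changes of 0.21 ± 0.09, -0.06 ± 0.12 and 0.05 ± 0.14. The other Cenpa probe sets had -0.53 ± 0.13, with every GR-null array below every wild-type array (limma, adjusted p over probe sets = 0.0519), and -0.04 ± 0.10. Those of Cenpf had 0.18 ± 0.09 and 0.75 ± 0.37, and that of Cenpe -0.27 ± 0.58. In the spindle checkpoint and at anaphase, the checkpoint kinases Bub1, Bub1b and Ttk had 0.20 ± 0.12, 0.18 ± 0.08 and 0.00 ± 0.11. The other Ttk probe set had -0.37 ± 0.09, with every GR-null array below every wild-type array (limma, adjusted p over probe sets = 0.0636). Other probe sets had -0.60 ± 0.35 for Bub1, and -0.02 ± 0.11 and -0.25 ± 0.30 for Bub1b, with groups that overlapped. Of the proteins that trigger anaphase, Cdc20, an activator of the anaphase-promoting complex, had -0.12 ± 0.12. Its other probe sets had the opposite sign, 0.44 ± 0.11 (limma, adjusted p over probe sets = 0.0663) and 0.08 ± 0.08, with groups that overlapped. Ube2c, the ubiquitin-conjugating enzyme of the anaphase-promoting complex, read 10.41, 10.57, 10.52 and 10.72 in GR-null arrays and 10.04, 10.65, 9.96 and 10.14 in wild-type arrays. As with Pcna, wild-type 6 lay among the GR-null arrays and the other wild-type arrays lay below them. The log2 fold change of Ube2c was 0.36 ± 0.15 (limma, adjusted p = 0.207). It was 0.51 with an adjusted p of 0.0476 without wild-type 6, the only array whose omission gave a call. With the 3' minus 5' covariate its direction turned, to -0.18 ± 0.25.

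The genes of the chromosomal passenger complex and cytokinesis held the 1 member past the threshold. Kif20a, the kinesin that brings the passenger complex to the central spindle, read 9.41, 8.98, 9.24 and 9.26 in GR-null arrays and 8.33, 8.51, 8.32 and 8.41 in wild-type arrays. Every GR-null array lay above every wild-type array, with a gap wider than the range of either group. Kif20a rose by 0.83 ± 0.10 log2 (1.78-fold, limma, adjusted p = 0.0078). Leaving out each array in turn gave 0.77 to 0.91 with adjusted p of 0.00268 to 0.0373. The call was lost with a covariate for muscle markers or for the state of the RNA, both given further on. Its partners in cytokinesis did not pass. Prc1, which bundles the central spindle, had 0.23 ± 0.09 (adjusted p = 0.173) and the kinesin Kif23 had 0.11 ± 0.08. The passenger kinase Aurkb had 0.13 ± 0.11, and Birc5 (survivin), another subunit of that complex, had -0.30 ± 0.14 (adjusted p = 0.246).

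**Figure D2:**
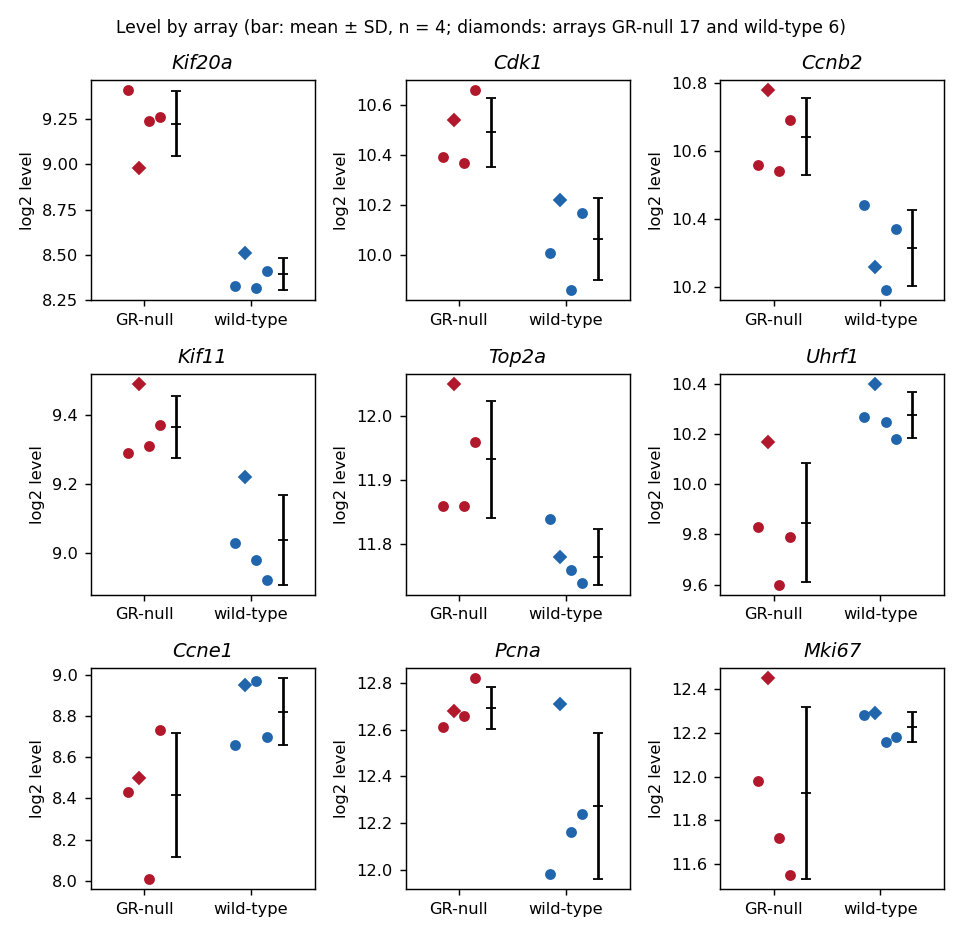
Log2 level (vertical axis, a separate range in each panel that does not start at 0) of 9 members on the 4 GR-null (red) and 4 wild-type (blue) arrays, with mean ± SD (n = 4) beside the points. Diamonds are GR-null 17 and wild-type 6. Kif20a, Cdk1, Ccnb2, Kif11 and Top2a have GR-null points entirely above the wild-type points and Uhrf1 entirely below. In Pcna wild-type 6 lies among the GR-null points at 12.71, and in Mki67 GR-null 17 lies above all others at 12.45.

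Kif20a lies on the same chromosome as Nr3c1, with 89 tested genes between them. Of these 89 genes 3 were called (3.37%), Cd14 (1.18) and Fgf1 (1.96) higher and Hars (-0.86) lower. Fgf1 is the tested gene next to Nr3c1. Of the 100 genes on either side of Nr3c1, 6 of 200 (3%) were called, Kif20a among them, against 518 of 17571 genes on other chromosomes (2.95%). Of those 6 calls 5 were higher and 1 lower, and on the whole chromosome without Nr3c1 12 were higher and 4 lower. On other chromosomes 240 were higher and 278 lower. The difference in direction was not tested. Cdc25c, the phosphatase that activates Cdk1 and a near neighbour of Kif20a with 86 genes between it and Nr3c1, differed by 0.19 ± 0.11 log2 (limma, adjusted p = 0.38).

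The arrays of a group did not sit at 1 common level for these genes. After each gene was centred on its mean over the 8 arrays, the mean over the mitosis genes was 0.05, 0.21, -0.05 and 0.04 in GR-null arrays and -0.08, 0.05, -0.12 and -0.09 in wild-type arrays. The mean over the replication genes was -0.07, 0.11, -0.17 and 0.04 in GR-null arrays and -0.09, 0.22, 0.01 and -0.06 in wild-type arrays. The groups overlapped in both. GR-null 17 and wild-type 6 were the high arrays of their groups. GR-null 17 was the highest GR-null array in 17 of 25 mitosis and 11 of 18 replication genes, and wild-type 6 the highest wild-type array in 17 of 25 and 14 of 18. In these 2 arrays Xist, expressed from the inactive X chromosome, read 12.61 and 13.22, against 5.92 to 6.38 in the other 6, and Y-linked Eif2s3y read 3.31 and 3.43, against 8.83 to 9.51. Each genotype held 1 such array. Leaving out GR-null 17 or wild-type 6 therefore leaves 1 genotype without such an array. The calls that Pcna, Ube2c, Uhrf1 and Mki67 gained by those omissions carry that imbalance. With Eif2s3y as a covariate the median was 0.13 over mitosis genes and -0.08 over replication genes, and Kif20a had 0.84 (limma, adjusted p = 0.0141).

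The difference between the class means on each array, mitosis minus replication, was 0.12, 0.10, 0.12 and -0.01 in GR-null arrays and 0.01, -0.17, -0.13 and -0.03 in wild-type arrays. It averaged 0.08 ± 0.06 in GR-null arrays and -0.08 ± 0.08 in wild-type arrays (SD, n = 4 each). The groups overlapped by 1 array each, with GR-null 26 at -0.01 and wild-type 4 at 0.01, and no test was made of this score because the members were chosen with results known. Array by array, therefore, the contrast between the classes was about as large as the range within either genotype.

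**Figure D3:**
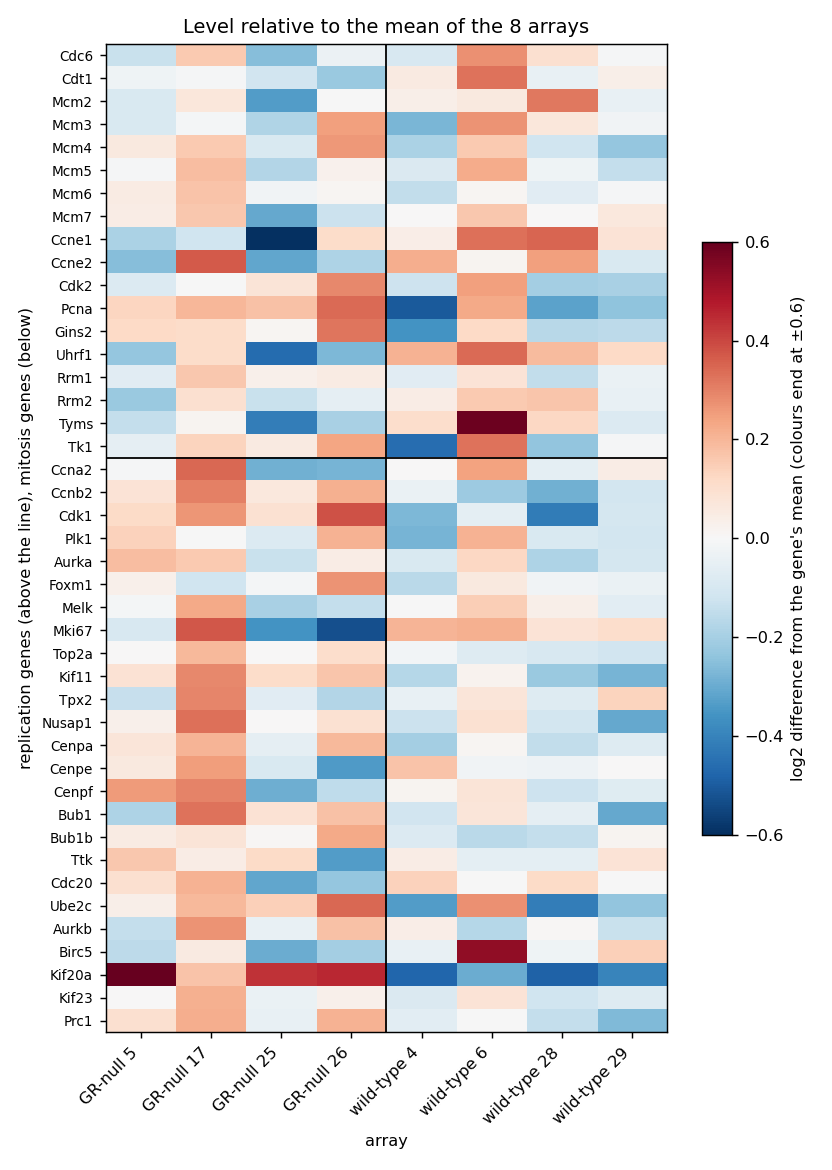
Log2 difference from each gene's mean over the 8 arrays (colour, red higher and blue lower, ending at ±0.6) for the 18 replication genes above the line and the 25 measured mitosis genes below it, with arrays in columns. GR-null 17 and wild-type 6 are the columns with most red in their groups, and Kif20a is the gene whose colour divides the genotypes most sharply.

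The other probe sets of these genes did not always give the same picture. The 43 members had 97 probe sets annotated to 1 gene, and 31 members had more than 1. Of the 54 probe sets not used above, 24 had the sign of the brightest probe set of their gene and 30 the opposite sign, and in 21 of the 31 genes the probe sets had both signs. Adjusted over all probe sets, 6 of the 97 passed the threshold (6.19%), against 4.24% of the 34945 single-gene probe sets. Kif20a has 1 such probe set, so its rise has no second reading.

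Kif11 rose at both of its other probe sets. One read 8.90, 8.91, 8.97 and 9.08 in GR-null arrays and 8.37, 8.53, 8.10 and 8.07 in wild-type arrays (0.70 ± 0.11, limma, adjusted p over probe sets = 0.021). The other read 9.03, 8.77, 9.20 and 9.32 in GR-null arrays and 8.15, 8.19, 7.57 and 7.22 in wild-type arrays (1.30 ± 0.22, adjusted p = 0.0242). All 3 Kif11 probe sets thus had groups that did not overlap, with sizes from 0.33 to 1.30.

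Rrm1 gave opposite calls. Its second probe set read 10.68, 10.48, 10.77 and 10.85 in GR-null arrays and 9.95, 10.02, 9.45 and 9.19 in wild-type arrays, a rise of 1.04 ± 0.19 (limma, adjusted p over probe sets = 0.0263). Its dimmest read 5.10, 5.01, 4.71 and 4.90 in GR-null arrays and 5.76, 5.38, 5.70 and 5.57 in wild-type arrays, and fell by 0.67 (adjusted p = 0.024). The brightest lay between them at 0.09. Mcm3, with 5 probe sets, rose at 1 of them (0.80 ± 0.16, adjusted p = 0.0354) and had log2 fold changes between -0.20 and -0.01 at the other 4. For both genes the direction therefore depended on the probe set read.

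The contrast between the classes depended on the kind of probe set read. Those with names ending in _x_at or _s_at can hybridise with more than 1 transcript, and 9 members were read at one. Over all probe sets of the replication genes the median log2 fold change was -0.16 for the 13 ending in _x_at or _s_at and 0.09 for the 27 plain ones. For the mitosis genes it was 0.08 for the 9 ending so and 0.04 for the 37 plain ones. Among plain probe sets the replication median was thus the higher of the 2. Over all single-gene probe sets of those kinds the medians were -0.04 and 0.01. With each gene read at its brightest probe set not ending in _x_at or _s_at, the replication median was 0.12 and the mitosis median 0.14. The difference was then 0.02 in place of 0.20. With each gene read as the average of its probe sets the mitosis median was 0.08, the replication median 0.02 and the difference 0.06.

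A measure of the RNA itself separated the genotypes. Affymetrix control probe sets at both ends of Gapdh and Actb give a 3' minus 5' difference that grows as RNA or its copies are shortened. It was -0.10, 0.07, -0.14 and -0.16 log2 for Gapdh in GR-null arrays and 0.31, 0.20, 0.54 and 0.55 in wild-type arrays. For Actb it was 0.64, 0.88, 0.54 and 0.52 in GR-null arrays and 1.28, 0.91, 1.48 and 1.39 in wild-type arrays. Neither control had overlapping groups. Genotype and this measure can therefore hardly be separated in these arrays.

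The mean of both control differences was added to the fit as a covariate after the data were seen. The median range of log2 fold changes within the 31 genes was 0.34 with the covariate and 0.45 without it, and it was smaller in 19 of 31. The Kif11 probe sets had 0.18, 0.23 and 0.28, those of Rrm1 0.01, 0.20 and -0.36, and the high Mcm3 probe set 0.14. Kif20a had 0.54 ± 0.19 (limma, adjusted p = 0.547). No gene of the 18193 passed the adjusted threshold with limma in this fit, and 1499 had an unadjusted p under 0.05, Kif20a among them. The median was 0.15 over mitosis genes and -0.10 over replication genes, a difference of 0.25. The values behind these medians changed, since 17 of the 43 members moved by at least the larger SD within their groups, and Kif20a was the only member with an unadjusted p under 0.05. The position of each probe set along its transcript was not used here.

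**Figure D4:**
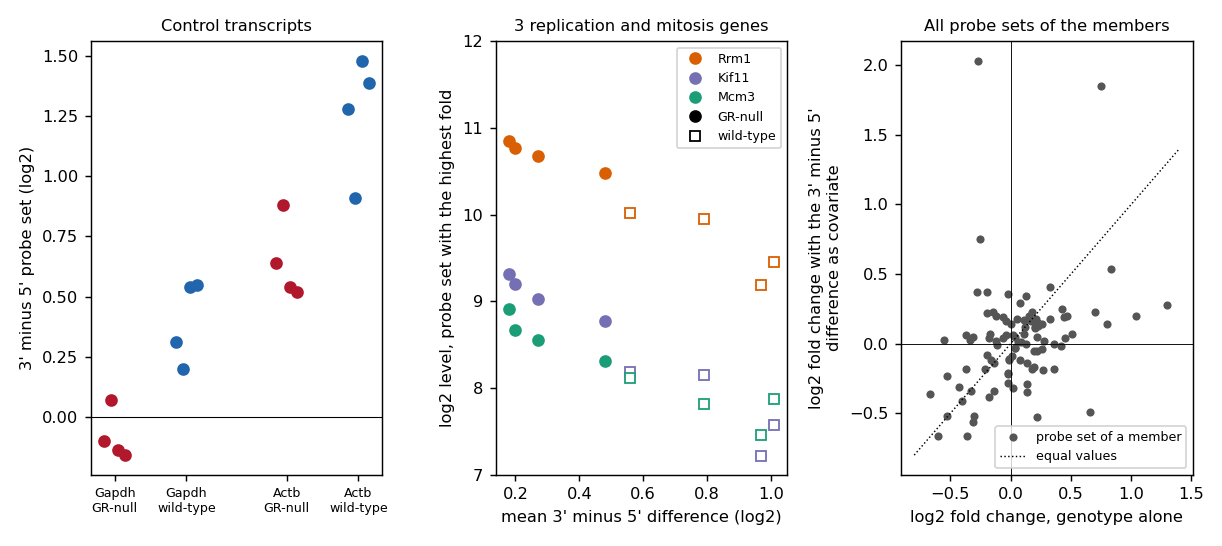
Left, the log2 difference between the 3' and 5' control probe sets of Gapdh and Actb, by genotype (GR-null red, wild-type blue). Middle, the log2 level (axis not from 0) of the probe set with the highest fold change of Rrm1, Kif11 and Mcm3 against the mean of both control differences, with GR-null arrays as filled circles between 0.18 and 0.48 and wild-type arrays as open squares between 0.56 and 1.01. Right, the log2 fold change of each of the 97 probe sets of the members from genotype alone (horizontal) and with the control difference as covariate (vertical), where the sets at 1.30 and 1.04 without it lie at 0.28 and 0.20. The 2 points at the top, a probe set each of Cenpe and Cenpf, have standard errors of 0.89 and 0.69.

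Levels of cell type markers differed as well. The mean log2 level of 17 skeletal muscle markers was 11.47 to 12.19 in GR-null arrays and 12.28 to 12.41 in wild-type arrays, with 5 of the 17 lower and none higher (limma, adjusted p below 0.05 over all genes). The median log2 fold change of the muscle list was -0.64, and -0.28 with the 3' minus 5' covariate. With the muscle mean as a covariate Kif20a differed by 0.54 log2 (adjusted p = 0.334), and the medians were 0.28 over mitosis genes and 0.15 over replication genes. Of 9 basal keratinocyte markers, which belong to the dividing layer of the epidermis, 2 rose, Trp63 (0.60 ± 0.12, adjusted p = 0.0372) and Col17a1 (0.59 ± 0.12, adjusted p = 0.0408). Krt5 and Krt14, keratins of the same layer, had -0.14 ± 0.17 and -0.20 ± 0.19. The basal list averaged 10.87 to 11.12 in GR-null arrays and 10.58 to 10.95 in wild-type arrays, and with it as a covariate Kif20a kept its call (0.87, adjusted p = 0.042). The suprabasal list averaged 12.57 to 13.14 in GR-null arrays and 13.07 to 13.55 in wild-type arrays, with 2 of 8 lower and none higher. Both keratinocyte lists were read at high levels in all arrays, as the label dorsal skin requires. Melanocyte markers averaged 8.63 to 9.29 in GR-null arrays and 7.86 to 8.27 in wild-type arrays, with 2 of 5 higher and none lower. Among 5 erythroid markers 1 fell and none rose, and no marker of fibroblasts, endothelium, macrophages, mast cells, Schwann cells or adipocytes was called. Of the 8 hair follicle markers none was called, and GR-null 17 stood at 9.05 against 7.38 to 7.79 in the other 7 arrays. The part of muscle, keratinocytes, melanocytes or follicles in the cell cycle values was not tested beyond these covariates.

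The other genes of each phase had medians nearer to 0, and the difference from the members was not tested. Among 75 measured of 77 further mitosis genes the median was 0.04, and 1 rose and none fell (1.33% called, against 2.96% of all genes). At an unadjusted p under 0.05 with limma, 13 (17.3%) were higher and 2 (2.67%) lower, against 10.5% and 11.1% of all genes. Ckap5, which promotes microtubule growth, was the one that rose. It read 9.62, 9.36, 9.94 and 9.93 in GR-null arrays and 8.78, 9.20, 8.81 and 8.86 in wild-type arrays (0.80 ± 0.15, limma, adjusted p = 0.0314), and its other probe sets had -0.11 and 0.07. The groups did not overlap, and GR-null 17 and wild-type 6 lay closest to each other. With the 3' minus 5' covariate its log2 fold change was 0.17. Next by p were Dlgap5, a spindle microtubule protein (0.41 ± 0.09, adjusted p = 0.0533), and the cytokinetic scaffold Anln (0.35 ± 0.09, adjusted p = 0.0628), neither past the threshold.

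Of 51 measured of 53 further replication genes none was called with limma, and the median was -0.01. At an unadjusted p under 0.05, 7 (13.7%) were higher and 5 (9.8%) lower, near the 10.5% and 11.1% of all genes. The smallest p-values belonged to Orc3, a subunit of the origin recognition complex (0.37 ± 0.09, adjusted p = 0.0567), Rfc3, a subunit of the clamp loader for Pcna (0.49 ± 0.13, adjusted p = 0.0749), and Pold1, the catalytic subunit of a replicative polymerase (-0.47 ± 0.13, adjusted p = 0.0809). As among the members, these values lay on both sides of 0.

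The 18 genes of the Rb, E2F and DREAM regulators, which time both classes, had a median of -0.01 and no call with limma. At an unadjusted p under 0.05, 3 (16.7%) were higher and 2 (11.1%) lower, against 10.5% and 11.1% of all genes. Rbl2 and Rbl1, the pocket proteins that hold these genes down, had 0.42 ± 0.11 (adjusted p = 0.0659) and 0.30 ± 0.08 (adjusted p = 0.0812). E2f7, a repressor of the family, had -0.26 ± 0.08 (adjusted p = 0.0965). Within the mitosis members, the 16 with CHR letters in their promoter had a median of 0.17 (range -0.31 to 0.43) and the 4 without had one of -0.06 (range -0.30 to 0.23), which overlap widely.

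**Figure D5:**
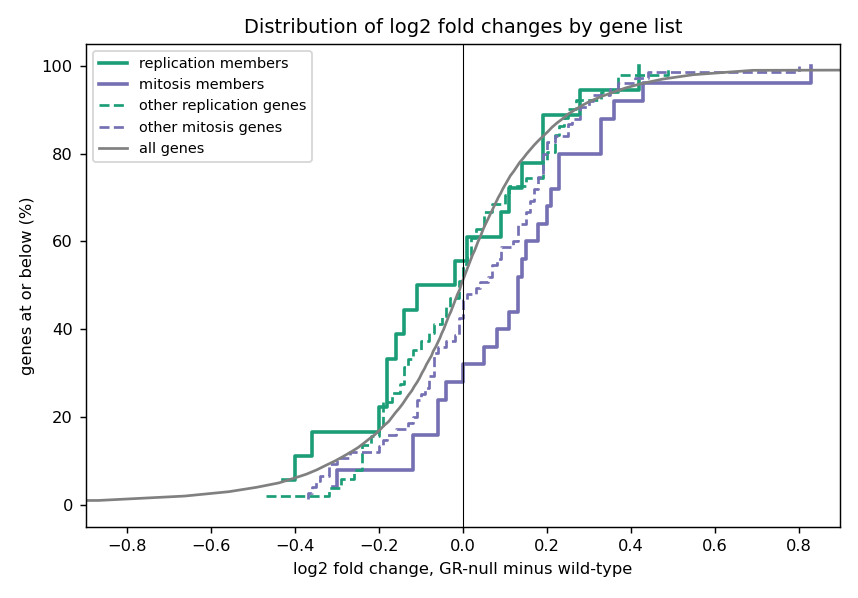
Share of genes (%, vertical axis) at or below each log2 fold change (GR-null minus wild-type, horizontal axis) for the replication and mitosis members (solid), the further genes of each phase (dashed) and all genes (grey). The curve of the mitosis members lies right of the others over most of its length, with a median of 0.13, and the medians of the further mitosis genes, the further replication genes and the replication members are 0.04, -0.01 and -0.07.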

How the data were processed

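The deposited table holds a log2 level for each probe set on 8 arrays, which the authors made with RMA per the submitters' processing notes. Its version, probe set definitions and filters are not stated there. RMA equalises the distribution across arrays (medians 6.46 to 6.52), so a shift of most transcripts one way could not be seen, and it compresses differences of very dim or bright transcripts. Precision is limited by the number of arrays.

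Of 45101 probe sets, 64 controls were left out of the tests and 45037 were fitted with limma 3.58.1 in R 4.3.3 (lmFit and eBayes, genotype as the single term, two-sided). By the platform annotation 34945 carried 1 gene symbol, 932 several and 9160 none. The fit was read at each gene's brightest single-gene probe set, and Benjamini-Hochberg adjustment was made over 18193 genes (threshold 0.05), or over all probe sets where stated. Of the genes, 18032 were found in the RefSeq table of GRCm38.p6, which gave names and gene order, and 161 kept the annotation's symbol.

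The members, the further gene lists and the cell type markers were chosen with earlier results of these data known, so counts over them are descriptions. Any of the 44 members could be named, and from each further list the genes past the threshold, with the 3 of smallest p where fewer than 3 passed. The members given array by array were picked after their values were seen. The fit was also tested on simulated data, drawn independently for each probe set from the means and residual spread of these arrays, with 200 genes shifted. Correlation between genes and the 3' minus 5' control difference were not simulated, so the shares below hold for that setting alone. It recovered 39.2% of shifts of 0.5 log2, 86.8% of shifts of 1 and 96.8% of shifts of 2, and 3.72% of its calls were false.

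The other settings were the genes above the median level alone, quantile normalization once more, a robust prior with an intensity trend, array weights, each gene as the average of its probe sets, no probe sets ending in _x_at or _s_at, covariates for muscle, basal keratinocyte and Y-linked levels, a threshold of 0.01, and leaving out each array. The covariate for the 3' minus 5' control difference was added after seeing the data. Scan dates were not used here.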

Additional observations from a re-analysis of the deposited data

Results flagged for a closer look

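Among the 86 groups of 4 arrays tested for a value far from the others, 1 stood apart. Chance alone gives about 1 in 20 groups, so 1 of 86 is no more than chance gives. Cdk2, the kinase of entry into S phase, read 9.71 in wild-type 6, against 9.26 to 9.34 in the other wild-type arrays. The GR-null arrays read 9.38, 9.46, 9.54 and 9.75. Wild-type 6 is also the highest wild-type array in 14 of 18 replication genes.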

How the results depend on the processing

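Kif20a had a positive log2 fold change in every setting run and passed the threshold in all of them except with the muscle list as covariate (0.54, adjusted p = 0.334) and with the 3' minus 5' control difference as covariate (0.54, adjusted p = 0.547), where the cause was not tested. The number of members past the threshold was 1 of 43 as reported, beside 539 of 18193 genes. It was 2 of 42 among genes above the median level (753 of 9096 genes). Of 18193 genes, array weights gave 4 members beside 1944 genes, the mean of all probe sets 3 beside 884, and the Y-linked covariate 3 beside 619. When each array was left out it was 3 without GR-null 17 (1640 genes) and without wild-type 6 (321 genes), and 1 otherwise. It was 0 with the muscle covariate (limma, 7 higher and 0 lower at an unadjusted p under 0.05, against 1659 of all genes, 5.49% higher and 3.63% lower). With the 3' minus 5' covariate it was also 0 (1 higher and 0 lower at that unadjusted p, against 4.97% and 3.26% of all genes). The members gained were Cdk1, Kif11, Uhrf1, Pcna, Mki67 and Ube2c. The number of genes, 539 as reported, was 1944 with array weights, 884 with the mean of all probe sets, 129 with the basal covariate, 6 with the muscle covariate, 0 with the 3' minus 5' covariate (limma, 1499 at an unadjusted p under 0.05), 46 at a threshold of 0.01 and 79 to 1640 when each array was left out. The lowest count was without GR-null 25 and the highest without GR-null 17.

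The replication median, -0.07 as reported, was 0.12 without probe sets ending in _x_at or _s_at, 0.15 with the muscle covariate and -0.12 to 0.00 when each array was left out. The mitosis median, 0.13 as reported, was 0.28 with the muscle covariate, 0.08 with the mean of all probe sets, where the replication median was 0.02, and 0.11 to 0.17 when each array was left out. Their difference, 0.20 as reported, was 0.06 with the mean of all probe sets, 0.02 without probe sets ending in _x_at or _s_at, and 0.15 to 0.24 when each array was left out. Other causes were not tested. No paired analysis was possible because the labels do not give the litter of each embryo, and the groups share no label number. Litter was therefore not part of any fit.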
